A study of Mus musculus with 6 samples.

Results

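The genes described here are 9 mouse genes of inflammatory output and endotoxin sensing in fibroblasts: the chemokine genes Ccl2, Ccl7, Cxcl1, Cxcl5 and Cxcl12, the cytokine genes Il6 and Lif, and the receptor genes Tlr4 and Ly96. They were chosen by name, with earlier results of these data known, and all 9 were found among the 18301 genes of the deposited table. Of these, 7 had a mean of at least 1 RPKM (reads scaled to gene length and to library size) over the 6 libraries and were tested, while Cxcl1 and Il6 lay below that level. The libraries were made from poly(A)-selected RNA of mouse embryonic fibroblasts of the strain CBA/CaJ X C57BL/6J on day 2 of reprogramming towards pluripotency. All cells received a short hairpin RNA (shRNA), and all but 1 group were kept in the defined medium iCD1 with ethanolamine (Etn). The control group, shLuc, held 2 libraries with an shRNA against luciferase. The other 4 groups held 1 library each: shEtnk1/2, directed at the ethanolamine kinases, shPcyt2, directed at the enzyme that makes CDP-ethanolamine, shPebp1, directed at phosphatidylethanolamine-binding protein 1, and Etn-deprived, with shLuc in iCD1 lacking Etn. No treated group had a replicate, and the labels do not say whether the shLuc libraries came from separate cultures, so p-values measure only the spread between these samples.

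Chemokines are small secreted proteins that draw leukocytes along a gradient. Ccl2 and Ccl7 bind the receptor Ccr2 on monocytes, Cxcl1 and Cxcl5 bind Cxcr2 on neutrophils, and Cxcl12 binds Cxcr4 and Ackr3 and is made without a stimulus by many stromal cells. Il6 and Lif belong to a family of cytokines that signal through the shared receptor chain Il6st (gp130) to the Jak kinases and Stat3. Tlr4 is the receptor for bacterial endotoxin, which it binds together with its secreted partner Ly96 (MD-2), and it activates NF-kB, the transcription factor behind many inflammatory genes. In fibroblasts Il6, Cxcl1 and Ccl2 are classical targets of NF-kB.

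The RefSeq promoter table (GRCm38.p6, the assembly of mm10) held 4 of the 9 genes, Il6, Cxcl1, Cxcl12 and Lif. Their 250 bases before the start were searched on both strands for the NF-kB consensus, which 5% of 32851 promoters of that length hold. Il6 and Cxcl1 each held 1 match, GGGATTTTCC at 44 to 35 bases before the RefSeq start and GGGAATTTCC at 71 to 62 bases before it, and Cxcl12 and Lif held none. For Il6 that start directly follows the window given here, whereas the deposited table starts the gene further downstream, at 30013161. A match describes the letters in this window and is not a measured binding site. Il6 and Cxcl1, which held a match, are shown with it in capitals. Cxcl12, without a match, is shown beside them, and Lif, also without one, is not shown. Ccl2, Ccl7, Cxcl5, Tlr4 and Ly96 could not be searched, and a link between a match and the level of a gene was not tested. The windows are chr5:30012864-30013113 for Il6, chr5:90890995-90891244 for Cxcl1 and chr6:117168285-117168534 for Cxcl12, all on the plus strand.
Il6: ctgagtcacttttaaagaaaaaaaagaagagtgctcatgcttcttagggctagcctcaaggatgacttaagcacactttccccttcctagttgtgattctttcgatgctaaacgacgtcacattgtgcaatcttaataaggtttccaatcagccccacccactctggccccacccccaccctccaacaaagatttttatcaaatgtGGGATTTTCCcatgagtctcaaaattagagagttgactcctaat
Cxcl1: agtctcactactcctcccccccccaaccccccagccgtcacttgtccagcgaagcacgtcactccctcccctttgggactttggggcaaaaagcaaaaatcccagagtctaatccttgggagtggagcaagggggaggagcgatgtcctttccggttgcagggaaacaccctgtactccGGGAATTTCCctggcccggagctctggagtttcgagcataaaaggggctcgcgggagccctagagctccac
Cxcl12: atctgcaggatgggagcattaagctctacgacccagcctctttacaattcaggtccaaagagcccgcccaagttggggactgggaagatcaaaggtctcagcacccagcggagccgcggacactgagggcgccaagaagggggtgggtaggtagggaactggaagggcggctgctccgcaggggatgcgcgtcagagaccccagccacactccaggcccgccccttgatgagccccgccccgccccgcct

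The libraries held 18466971 to 20019617 reads in genes, recovered from the steps of the deposited values. Of the targets, Etnk1 had 12.5 RPKM in shEtnk1/2, 59.1% of the shLuc mean (limma, adjusted p = 0.00401), and Pcyt2 had 29.9 RPKM in shPcyt2, 72.9% of it (adjusted p = 0.16). Etnk2 lay below the level for testing. Pebp1 had 99.6 RPKM in shPebp1 against 250.4 in shLuc replicate 1, but the library labelled shLuc replicate 2 had 100.7 RPKM. That library therefore goes against its label as far as Pebp1 is concerned, and every difference from shLuc below rests in part on it. In the main fits of single treated libraries every SE and p-value took its spread from the shLuc pair, and so from that library. Pebp1 differed from the shLuc mean by 0.52 in shEtnk1/2, 0.73 in shPcyt2, 0.40 in Etn-deprived and -0.67 in shPebp1 (log2(RPKM + 1) scale, SE 1.04). All 15 fibroblast markers were measured, with a summed level of 10841 to 14717 RPKM, highest in shEtnk1/2. The summed level of the 15 macrophage markers found in the table was 53.8 to 73.2 RPKM, of which Lyz2 made up 38.4 to 52.5. The leukocyte marker Ptprc was at 0.05 to 0.19 RPKM, and the 5 neutrophil markers found summed to 0 to 0.41 RPKM. In bulk RNA fewer cells of a type and less RNA per cell cannot be told apart.

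Per length, Ccl7 was the most abundant of the 9 genes, at 38.2 to 59.7 RPKM, and Ccl2 came next, at 14.1 to 18.6 RPKM, without overlap between them. Ly96 (5.02 to 11.1 RPKM) and Cxcl12 (3.58 to 6.02) followed and overlapped. Tlr4 (1.97 to 3.24), Lif (1.67 to 2.67) and Cxcl5 (1.35 to 3.28) came after these and could not be told apart beyond their spread over the libraries. Cxcl1 (0.44 to 0.80) and Il6 (0 to 0.55) were lowest. The cells therefore held about 40.5 RPKM of Ccl7 in shLuc where Il6 was at 0.41. The gene length behind these values was inferred from the RPKM of 1 read and came to 7212 nt for Cxcl12, the longest of the 9, and 607 nt for Ly96, the shortest.

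**Figure D1:**
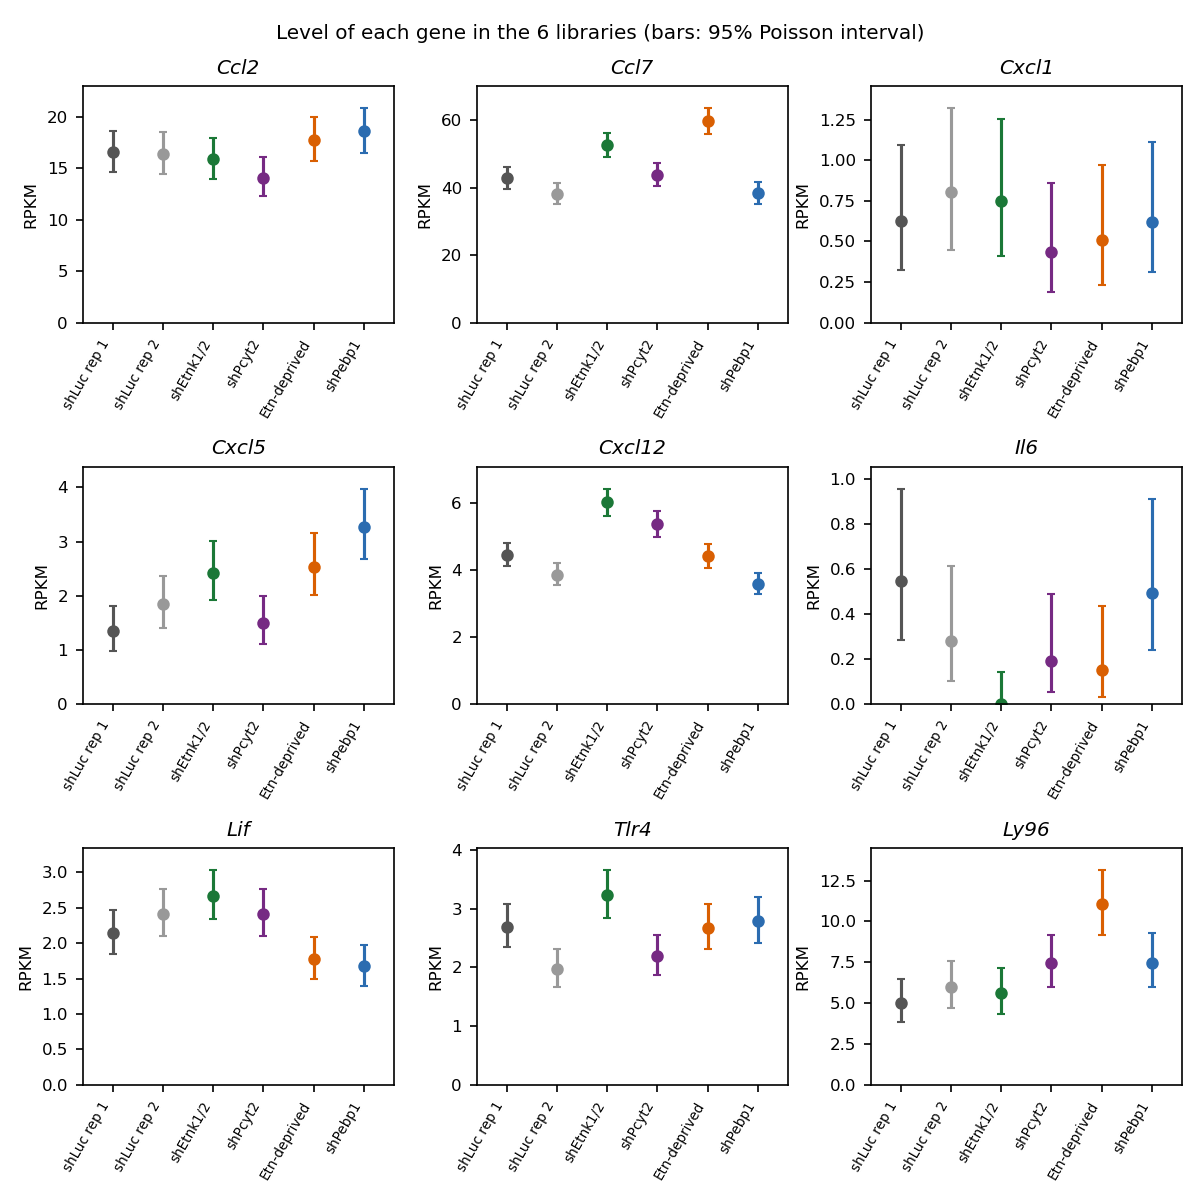
Level of the 9 genes in RPKM (vertical axes, each from 0) in the 6 libraries (horizontal axis). Points are single libraries and bars are 95% Poisson intervals from the recovered reads, which cover counting error only; for Il6 in shEtnk1/2, with 0 reads, the bar ends at the level of 3 reads. Ly96 stands highest in Etn-deprived at 11.1 RPKM, and Ccl7 is highest there at 59.7 RPKM.

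Ccl7, a ligand of Ccr2 (mm10 chromosome 11, 82045712 to 82047523, plus strand), was higher in 2 of the 4 treated libraries. It had 42.8 RPKM in shLuc replicate 1 and 38.2 in the library labelled shLuc replicate 2, 52.6 in shEtnk1/2, 43.8 in shPcyt2, 59.7 in Etn-deprived and 38.3 in shPebp1. Etn-deprived and shEtnk1/2 lay well above both shLuc libraries, shPcyt2 just above them and shPebp1 between them. In Etn-deprived Ccl7 rose by 0.55 on the log2(RPKM + 1) scale (SE 0.09, limma, adjusted p = 0.00951), with 887 reads behind the value (95% Poisson interval 55.8 to 63.7 RPKM). In shEtnk1/2 it rose by 0.37 (SE 0.09), which passed the threshold narrowly (adjusted p = 0.0495). It missed it with a pseudocount of 0.25 RPKM (adjusted p = 0.0519) and with quantile normalization (adjusted p = 0.0711). In the same library 1 of the 7 tested macrophage markers was called higher too. This was Lyz2, at 52.5 RPKM against 40.2 and 42.6 in shLuc (0.34, limma, adjusted p = 0.0478). Of the 7 markers, 4 were higher and 3 lower than shLuc there. The summed macrophage markers were at 73.2 RPKM against 60.03 and 62.20 in shLuc, and Lyz2 made up 52.5 of the 73.2. Their part in the result was not tested. In Etn-deprived that sum was 62.6 RPKM and Lyz2 was not called. Ccl7 was at 0.11 in shPcyt2 and at -0.07 in shPebp1, and neither difference passed. As background, limma called 0.586% of 11939 genes higher in Etn-deprived and 1.09% higher in shEtnk1/2. Of the 7 tested members, 2 were called in the first (Ccl7 and Ly96) and 1 in the second (Ccl7). In shPcyt2 limma called 0.109% of genes in either direction and in shPebp1 0.101%, and none of the 7 members in those. The members were chosen with earlier results of these data known, so these counts cannot be read as an excess over those shares. Without shLuc replicate 1 Ccl7 was at 0.63 in Etn-deprived and without the library labelled shLuc replicate 2 at 0.47. In shEtnk1/2 it was at 0.45 and 0.29 with the same libraries left out. None of these values was called, in fits whose spread came from differences between pathway treatments, not from replicates.

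Ccl7 also differed between treated libraries. Etn-deprived was above shPebp1 by 0.63 (SE 0.10, limma, adjusted p = 0.0231) and above shPcyt2 by 0.44 (SE 0.10, adjusted p = 0.0495). It was above shEtnk1/2 by 0.18 (SE 0.10, adjusted p = 0.459), which did not pass. These contrasts called 1.22%, 3.22% and 0.854% of all genes in either direction, and they take their spread from the shLuc pair alone. The difference from shPcyt2 passed in 3 of 7 alternatives and missed the threshold with a pseudocount of 0.25 RPKM (adjusted p = 0.0515), median ratio scaling (adjusted p = 0.0697), quantile normalization (adjusted p = 0.0765) and no filter on low values (adjusted p = 0.377). The difference from shPebp1 passed in 5 of 7 and missed it with quantile normalization (adjusted p = 0.0591) and no filter (adjusted p = 0.347).

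Ccl2, the other Ccr2 ligand of the set and a neighbour of Ccl7 on chromosome 11 (82035577 to 82037452), was nearly level. It had 16.6 and 16.4 RPKM in the shLuc libraries, 15.9 in shEtnk1/2, 14.1 in shPcyt2, 17.7 in Etn-deprived and 18.6 in shPebp1. The 2 shLuc libraries lay closer together than for any other of the 7 tested members, 0.01 apart on the log2 scale. The largest difference was -0.21 (SE 0.09) in shPcyt2, with a limma adjusted p of 0.836, and Etn-deprived was at 0.10 (SE 0.09, adjusted p = 0.589). Across the 6 libraries the levels of Ccl2 and Ccl7 had a Pearson r of 0.01, given as a description of 6 libraries that share their cells and, for 5 of them, their medium. The gene Gm17268 on the opposite strand overlaps Ccl2 in the GENCODE M21 annotation of this assembly, and the strand setting of the authors' counting is not given in the sources used here. How reads that fit both a chemokine gene and a close relative were counted is not given either.

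Ly96, the partner of Tlr4 (chromosome 1, 16688456 to 16709605, plus strand), was higher in 1 of the 4 treated libraries. It had 5.02 RPKM in shLuc replicate 1 and 5.98 in the library labelled shLuc replicate 2, 5.62 in shEtnk1/2, 7.45 in shPcyt2, 11.1 in Etn-deprived and 7.48 in shPebp1. The Etn-deprived library was at 201% of the shLuc mean, shPcyt2 and shPebp1 lay above both shLuc libraries and shEtnk1/2 lay between them. These values rest on 61, 71, 67, 87, 124 and 84 reads, and the 95% Poisson interval of Etn-deprived (9.20 to 13.2 RPKM) did not overlap those of the shLuc libraries (3.84 to 6.44 and 4.67 to 7.55). In Etn-deprived Ly96 rose by 0.90 (SE 0.13, limma, adjusted p = 0.00634). It was at 0.38 in shPcyt2 (SE 0.13, adjusted p = 0.779), at 0.39 in shPebp1 (SE 0.13, adjusted p = 0.689) and at 0.03 in shEtnk1/2. Without shLuc replicate 1 the value in Etn-deprived was 0.79, and without the library labelled shLuc replicate 2 it was 1.00. Neither value was called, in fits whose spread came from differences between pathway treatments, not from replicates.

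Between treatments, Ly96 was higher in Etn-deprived than in shEtnk1/2 by 0.86 (SE 0.15, limma, adjusted p = 0.0296). The differences from shPcyt2 (0.51, SE 0.15, adjusted p = 0.103) and from shPebp1 (0.51, SE 0.15, adjusted p = 0.154) did not pass. The call against shEtnk1/2 was lost with limma-voom on recovered reads (0.97, adjusted p = 0.175), with median ratio scaling (adjusted p = 0.0571), with quantile normalization (adjusted p = 0.0851) and without the filter on low values (adjusted p = 0.359). In shEtnk1/2 against shPcyt2, where 0.921% of genes were called, none of the 7 members passed, and Ly96 was at -0.35 (SE 0.15, adjusted p = 0.368).

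Tlr4 itself (chromosome 4, 66827811 to 66842796, plus strand) did not follow Ly96. It had 2.69 and 1.97 RPKM in the shLuc libraries, 3.24 in shEtnk1/2, 2.19 in shPcyt2, 2.67 in Etn-deprived and 2.79 in shPebp1. The shLuc pair spanned more than shPcyt2 and Etn-deprived did from their mean. The highest library, shEtnk1/2, was at 0.36 (SE 0.19, limma, adjusted p = 0.335), and Etn-deprived was at 0.15 (SE 0.19, adjusted p = 0.702). Without the library labelled shLuc replicate 2 the value in Etn-deprived turned to -0.01. Pearson's r between Tlr4 and Ly96 over the 6 libraries was -0.05.

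**Figure D2:**
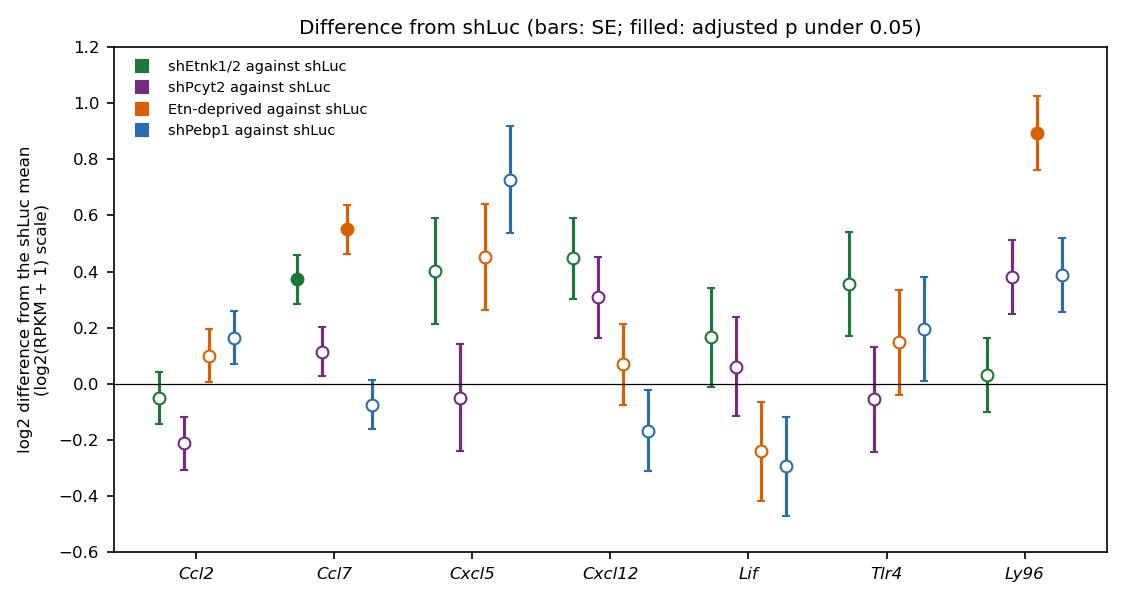
Difference of each treated library from the shLuc mean for the 7 tested genes, on the log2(RPKM + 1) scale. Bars are standard errors from limma, filled points have an adjusted p under 0.05 and open points do not. Filled are Ccl7 in shEtnk1/2 (0.37) and in Etn-deprived (0.55), and Ly96 in Etn-deprived (0.90).

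The chemokines with the CXC motif gave values that did not pass the test. Cxcl5 (chromosome 5, 90759298 to 90761625) had 1.35 and 1.84 RPKM in shLuc, 2.41 in shEtnk1/2, 1.496 in shPcyt2, 2.53 in Etn-deprived and 3.28 in shPebp1. The shEtnk1/2, Etn-deprived and shPebp1 libraries lay above both shLuc libraries and shPcyt2 lay between them. The shPebp1 library was at 205% of the shLuc mean, on 101 reads against 45 and 60, and the difference of 0.73 (SE 0.19) had a limma adjusted p of 0.454, or 0.5 with limma-voom. Differences of 0.40 in shEtnk1/2 (SE 0.19, adjusted p = 0.283) and 0.45 in Etn-deprived (SE 0.19, adjusted p = 0.222) did not pass either.

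Cxcl12 (chromosome 6, 117168535 to 117181368) had 4.45 and 3.86 RPKM in shLuc, 6.02 in shEtnk1/2, 5.38 in shPcyt2, 4.41 in Etn-deprived and 3.58 in shPebp1. The shEtnk1/2 and shPcyt2 libraries lay above both shLuc libraries, Etn-deprived lay between them and shPebp1 below. The difference in shEtnk1/2 was 0.45 (SE 0.14), with a limma adjusted p of 0.127, and limma-voom on recovered reads called it (0.54, adjusted p = 0.00139). In shPcyt2 it was 0.31 (SE 0.14, adjusted p = 0.855). Cxcl12 is a gene of stromal cells. In shEtnk1/2 7 of the 15 fibroblast markers were called higher, where limma called 1.09% of all genes tested higher. The median of the 15 was 0.28 against -0.06 over all genes tested. The part of that shift in the level of Cxcl12 or Ccl7 was not tested. In Etn-deprived none of the 15 was called, with a median of 0.09.

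Cxcl1 (chromosome 5, 90891245 to 90893115) was read 12 and 15 times in the shLuc libraries, 14 times in shEtnk1/2, 8 times in shPcyt2, 9 times in Etn-deprived and 11 times in shPebp1. These counts correspond to 0.63, 0.80, 0.75, 0.44, 0.51 and 0.62 RPKM in the same order. The 95% Poisson intervals of all 6 libraries overlapped. These intervals cover counting error only and their overlap is not a test, so they cannot decide whether the level differed.

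Il6 (chromosome 5, 30013161 to 30019968) was close to silent. It had 12 and 6 reads in the shLuc libraries (0.55 and 0.28 RPKM), 4 in shPcyt2 (0.19 RPKM), 3 in Etn-deprived (0.15 RPKM), 10 in shPebp1 (0.49 RPKM) and none in shEtnk1/2. The 0 reads of shEtnk1/2 allow a level of up to 0.140 RPKM, the level of 3 reads in that library. The 3 pathway libraries were below both shLuc libraries, and shPebp1 lay between them. Of the tested genes 15.9% had the 3 pathway libraries below both shLuc libraries, but that share leaves out genes as low as Il6. The exact two-sided permutation test over these 3 and 2 libraries gave p = 0.1, the smallest value that its 10 splits allow. In a fit without the filter on low values the differences from shLuc were -0.49 in shEtnk1/2 (limma, adjusted p = 0.445), -0.24 in shPcyt2 (adjusted p = 0.776) and -0.29 in Etn-deprived (adjusted p = 0.577).

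Lif (chromosome 11, 4257568 to 4272514), the cytokine of the family that maintains mouse pluripotent cells in culture, had 2.14 and 2.41 RPKM in shLuc, 2.67 in shEtnk1/2, 2.42 in shPcyt2, 1.77 in Etn-deprived and 1.67 in shPebp1. The Etn-deprived and shPebp1 libraries were below both shLuc libraries, at 77.9% and 73.4% of their mean, and shEtnk1/2 was above them. The differences of -0.24 (SE 0.18, limma, adjusted p = 0.493) and -0.29 (SE 0.18, adjusted p = 0.913) did not pass the test.

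Treated as 1 group, the 3 libraries of pathway inhibition (shEtnk1/2, shPcyt2 and Etn-deprived) did not differ from shLuc beyond the threshold for any of the 7 members. In this comparison limma called 0 of 11939 genes (0%), where 724 genes had an unadjusted p below 0.05. The limma-voom fit called 0 as well, where 810 genes did. Ccl7 averaged 52.0 ± 7.96 RPKM (SD, n = 3) against 40.5 ± 3.25 (SD, n = 2), and its 3 pathway libraries all lay above both shLuc libraries. Its difference of 0.35 (SE 0.12) had a limma adjusted p of 0.812 and an exact permutation p of 0.2. It was the only one of the 7 tested members whose groups did not overlap upwards, where 7.82% of all tested genes did so, and none of the 7 did so downwards, where 15.9% did. Ly96 averaged 8.04 ± 2.76 RPKM (SD, n = 3) against 5.02 and 5.98 in shLuc. The difference of 0.44 (SE 0.24, limma, adjusted p = 0.817) was 0.21 without Etn-deprived.

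Other genes of the pathways were taken from lists that share no gene with the 9. Of 22 genes of IL-6 family signalling, 18 were tested. In Etn-deprived 3 of them rose: Osmr, the oncostatin M receptor, the kinase gene Jak2, and Socs3, the feedback inhibitor that cytokines of this family induce. None was called lower, and the median of the 18 was 0.08 against -0.01 over all genes tested. As background, limma called 0.586% of 11939 genes higher in this library. The list was chosen with earlier results of these data known, so its count cannot be read as an excess over that share. Osmr had 26.1 and 22.8 RPKM in shLuc, 27.5 in shEtnk1/2, 24.1 in shPcyt2, 35.3 in Etn-deprived and 24.9 in shPebp1. Only the Etn-deprived library stood well apart from the others, and the change was 0.52 (SE 0.10, limma, adjusted p = 0.0228).

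Socs3 had 23.1 and 22.4 RPKM in shLuc, 19.2 in shEtnk1/2, 22.7 in shPcyt2, 29.8 in Etn-deprived and 25.4 in shPebp1. It changed by 0.38 in Etn-deprived (SE 0.09, limma, adjusted p = 0.0425), and it was higher there than in shEtnk1/2 by 0.61 (SE 0.10, adjusted p = 0.02). Jak2 changed by 0.40 (SE 0.09, adjusted p = 0.0463), with 20.3 RPKM against 15.0 and 15.4 in shLuc. The shared chain Il6st was at 0.22 (adjusted p = 0.176), the receptor chain Lifr at 0.25 (adjusted p = 0.277) and Stat3 at 0.20 (adjusted p = 0.321) in that library, and none of these passed. With either shLuc library left out none of the 3 called genes passed, in fits whose spread came from differences between pathway treatments, not from replicates. With the length trend removed all 3 also missed the threshold, Osmr with an adjusted p of 0.0773, as they did without the filter on low values (adjusted p from 0.28 to 0.356). Jak2 and Socs3 missed it with median ratio scaling (adjusted p = 0.0571 and 0.0546) and quantile normalization (0.0663 and 0.0609) as well, so that each passed in 3 of 9 alternatives and Osmr in 5 of 9.

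In shEtnk1/2 only Il6ra of the 18 was called, and it fell from 8.03 and 8.19 to 5.47 RPKM. The change of -0.49 (SE 0.12, limma, adjusted p = 0.0466) held in 3 of 9 alternatives. It was lost with median ratio scaling (adjusted p = 0.0942), quantile normalization (0.118), the length trend removed (0.0937) and no filter (0.289). It was also lost with either shLuc library left out, in fits whose spread came from differences between pathway treatments. For comparison, limma called 2.37% of all genes lower in this library. The median of the list was 0.12. In shPcyt2 and shPebp1 none of the 18 was called, with medians of 0.0018 and -0.0095.

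**Figure D3:**
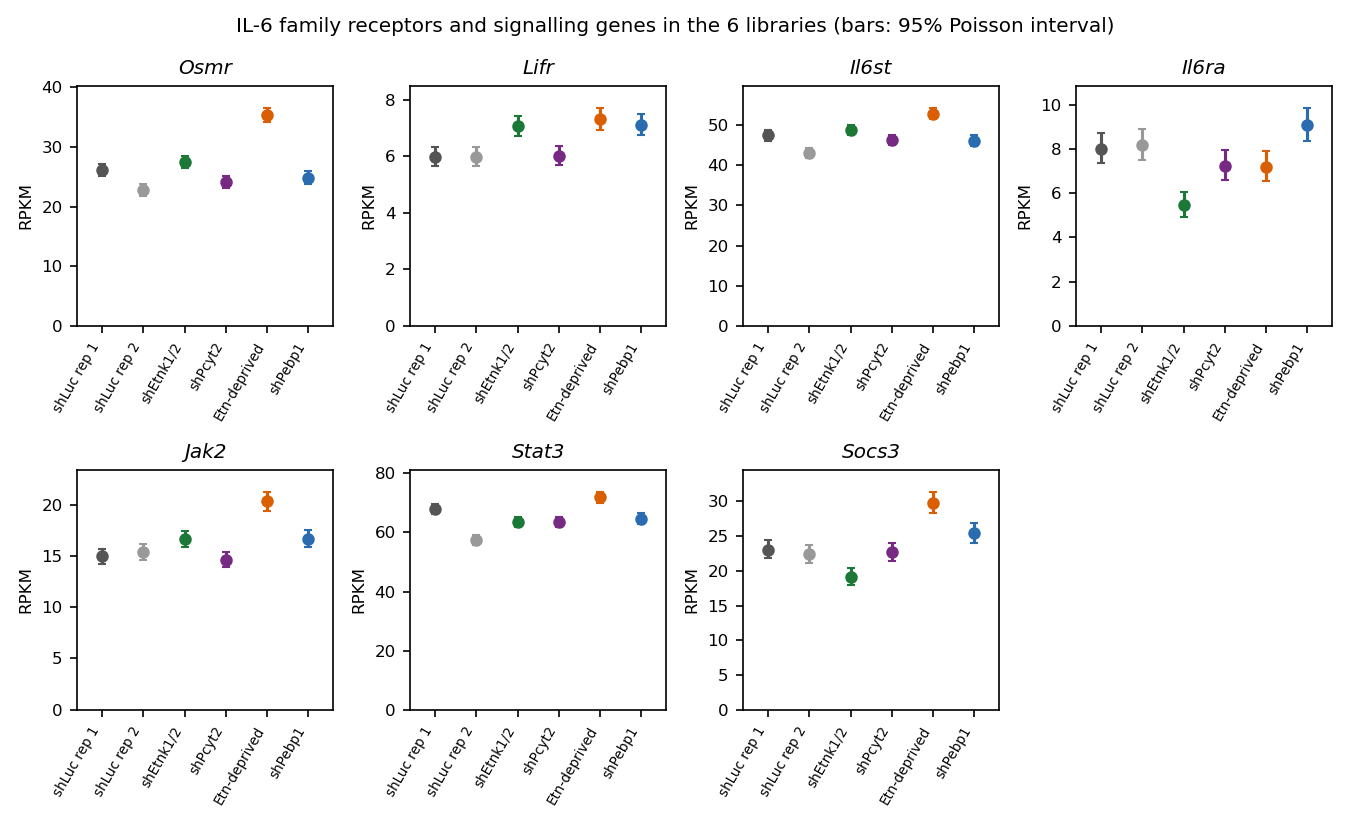
Level in RPKM (vertical axes, each from 0) of 7 receptors and signalling genes of the IL-6 family in the 6 libraries. Points are single libraries and bars are 95% Poisson intervals. Osmr, Jak2 and Socs3 are highest in Etn-deprived (35.3, 20.3 and 29.8 RPKM), and Il6ra is lowest in shEtnk1/2 (5.47 RPKM).

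Of 41 other genes of the Toll-like receptor pathway, 34 were tested. None of the 34 was called higher in any of the 4 libraries, and only in shEtnk1/2 was any called lower. There 1 of the 34 was called lower, near the 2.37% of all genes tested that limma called lower in that library. This was Irak3, an inhibitor of the signalling kinases, which fell in shEtnk1/2 from 17.7 and 18.5 to 13.5 RPKM (-0.40, SE 0.09, limma, adjusted p = 0.0483). This held in 3 of 9 alternatives and was lost with median ratio scaling (adjusted p = 0.114), quantile normalization (0.12), the length trend removed (0.112) and no filter (0.29). It was also lost with either shLuc library left out, in fits whose spread came from differences between pathway treatments. In Etn-deprived Irak3 was at 22.4 RPKM, above shEtnk1/2 by 0.69 (SE 0.11, adjusted p = 0.0168). The co-receptor Cd14 had 2.05 and 1.66 RPKM in shLuc and 1.401 in Etn-deprived (-0.25, adjusted p = 0.513), so that it did not move with Ly96. The adaptors Myd88 (0.26, adjusted p = 0.161) and Ticam1 (-0.24, adjusted p = 0.265) did not pass in that library. The median of the 34 was 0.06 in Etn-deprived and 0.06 in shPebp1, -0.01 in shEtnk1/2 and -0.04 in shPcyt2.

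Of 36 inflammatory target genes, 27 were tested and none was called in any of the 4 libraries. In Etn-deprived 21 of the 27 had values above the shLuc mean, with a median of 0.17 against -0.01 over all genes tested. Below the shLuc mean lay 6 of the 27, among them Nfkbia, the inhibitor that NF-kB induces as feedback. Nfkbia was at 12.1 RPKM against 17.8 and 15.1 in shLuc (-0.41, limma, adjusted p = 0.0893). The adhesion genes Vcam1 (0.19, adjusted p = 0.277) and Icam1 (0.18, adjusted p = 0.447), the growth factor gene Csf1 (0.17, adjusted p = 0.305), the cyclooxygenase gene Ptgs2 (0.38, adjusted p = 0.228) and Tnfaip3 (0.02, adjusted p = 0.97) did not pass. Saa3, an acute-phase gene, lay below the level for testing at 0.10 to 0.84 RPKM. In the other 3 libraries the medians were -0.02 (shEtnk1/2), -0.03 (shPcyt2) and -0.04 (shPebp1).

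Of 33 other chemokines 25 were found in the table and 7 were tested. Cxcl14 was above Ccl7 in each library, at 125.9 to 164.4 RPKM. Only Cxcl10, a chemokine of the interferon response, was called, in shEtnk1/2, where it had 44 reads (2.02 RPKM) against 7 and 8 (0.32 and 0.37 RPKM) in shLuc. Both shLuc values lay below 1 RPKM, so Cxcl10 reached the level for testing only through the treated libraries where it was higher. The change was 1.17 (SE 0.21, limma, adjusted p = 0.0198), and without the filter the adjusted p was 0.289. With either shLuc library left out it was not called, in fits whose spread came from differences between pathway treatments. The other 3 treated libraries were above both shLuc libraries as well, with 32 reads in shPebp1 (0.93, adjusted p = 0.323), 24 in Etn-deprived (0.70, adjusted p = 0.108) and 19 in shPcyt2 (0.49, adjusted p = 0.836). The difference of Etn-deprived from shEtnk1/2 was -0.48 (adjusted p = 0.412), and that of shEtnk1/2 from shPcyt2 was 0.68 (adjusted p = 0.269). Ccl5 (0.10 to 0.95 RPKM), Cxcl16 (0.24 to 0.56) and Cxcl2 (0 to 0.15), the last a relative of Cxcl1 that binds Cxcr2 as well, lay below the level for testing, and so did the cytokine gene Il11 (0.13 to 0.48). Of the chemokine receptors 3 of 23 were tested and none was called. These included both receptors of Cxcl12, Ackr3 at 51.5 to 60.7 RPKM and Cxcr4 at 32.9 to 38.0 RPKM, where the difference from shLuc that was farthest from 0 was -0.18, for Ackr3 in shEtnk1/2 (adjusted p = 0.239).

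Short transcripts were lower in the Etn-deprived library as a whole, and Ly96 and Ccl7 are short. There the median was -0.25 for the 447 tested genes no longer than 700 nt, -0.13 for the next 495 genes, no longer than 1000 nt, and 0.04 for the 2288 genes above 5000 nt. Ly96, at 607 nt, and Ccl7, at 805 nt, went against this order. With the length trend removed the change of Ly96 was 1.12 (limma, adjusted p = 0.0135) and that of Ccl7 was 0.73 (adjusted p = 0.0114).

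**Figure D4:**
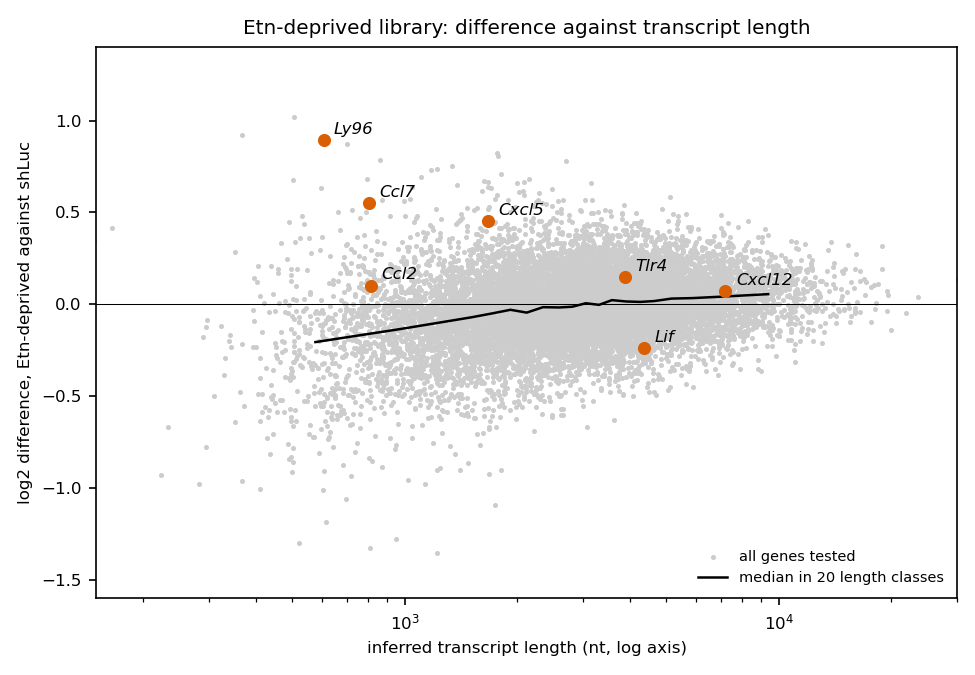
Difference of the Etn-deprived library from the shLuc mean (vertical axis, log2(RPKM + 1) scale) against the inferred transcript length in nt (horizontal log axis) for the 11939 genes tested. Grey points are genes, the line joins the medians of 20 length classes, and orange points are the 7 tested members. Ly96 (0.90) and Ccl7 (0.55) lie far above the line at the short end.

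The likeness of other genes to the members was measured as Pearson's r over the 6 libraries among the 9025 or 9026 other genes whose mean reached 5 RPKM. Because 6 libraries leave much room for high values, between 4 and 43 genes reached 0.95 for a member, and the names below are a description only. Nearest to Ly96 were Phospho2 (r = 0.996), Mff (0.987) and 2700060E02Rik (0.980), and nearest to Ccl7 were Tmem167 (0.989), Tmem135 (0.989) and the chaperone gene Hspa5 (0.988). Nearest to Ccl2 were Pvt1 (0.993), Rnf139 (0.993) and Cetn3 (0.993). Cxcl12 was closest to Zdhhc24 (0.995), the matrix gene Dpt (0.992) and Arhgef40 (0.989), and Cxcl5 to Stam2 (0.985), Cyb5r4 (0.977) and Txndc11 (0.966). Lif was closest to Mrc2 (0.996), the urokinase receptor gene Plaur (0.995) and Cope (0.995), and Tlr4 to Kctd1 (0.981), Tgfbr3 (0.976) and Fam20b (0.964).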

How the data were processed

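The deposited table holds 1 RPKM value per gene and library, computed by the authors. Per the submitters' processing notes, Bowtie 0.12.2 and the build mm10 were used. Gene models, counting program and strand setting are not given in these sources. For all 18303 lines the values were ratios of whole numbers, within 1e-05 reads plus a relative 5e-09, and the smallest set of these served as reads for the 95% Poisson intervals and the inferred lengths. For a symbol on 2 lines, only the line of higher mean entered.

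Genes averaging at least 1 RPKM were tested on log2(RPKM + 1), a scale that understates fold changes of low genes, with limma 3.58.1 in R 4.3.3 (trended, robust empirical Bayes). Treated libraries were compared with shLuc and with each other in 1 model of 5 group means. Its spread came from the shLuc pair (1 residual degree of freedom, prior 9.24), which the single treated libraries were assumed to share. The 3 pathway libraries were set against shLuc in a second model (3 residual degrees of freedom, prior 6.37). Two-sided p-values were adjusted by Benjamini-Hochberg across all 11939 tested genes, at a threshold of 0.05. Alternatives changed the pseudocount, filter, scaling, tool, length trend or libraries. With 1 shLuc library left out, the spread came from differences between pathway treatments, since no replicates remained. Scripts were tested on simulated data.

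The members and lists were chosen with earlier results of these data known. The text names the members, the 4 targeted genes, each called gene of the pathway lists, a set panel of pathway genes and the 3 genes most like each tested member. Marker genes were named outside this rule, after their values were seen. 1 gene of the pathway lists is not reported here and is left out of the list counts.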

Additional observations from a re-analysis of the deposited data

How the results depend on the processing

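Both calls in Etn-deprived held under 6 of 9 alternatives. Ccl7 ranged from 0.47 to 0.73 (adjusted p 0.000848 to 0.541) and Ly96 from 0.79 to 1.12 (0.00161 to 0.304). The call of Ccl7 in shEtnk1/2 held under 4 of 9, with values of 0.29 to 0.51 (adjusted p 0.0254 to 1). All 3 were lost without the filter on low values, and the call in shEtnk1/2 also with a pseudocount of 0.25 RPKM and with quantile normalization. All 3 were lost as well with either shLuc library left out. Those fits took their spread from differences between pathway treatments, not from replicates, so they cannot decide whether the calls rest on 1 shLuc library. Treated groups had 1 library each, and the reads of Cxcl1 and Il6 limit what can be seen of them.

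The number of genes called in shEtnk1/2 went from 413 to 0 without the filter, 240 (138 higher, 102 lower) with median ratio scaling, 153 (81 and 72) with quantile normalization, 790 with limma-voom and 186 (123 and 63) with the length trend removed, where the main split was 130 higher and 283 lower. In Etn-deprived it went from 454 (70 and 384) to 0, 261, 197, 700 (294 and 406) and 78 (29 and 49). In shPcyt2 it went from 13 to 0 without the filter, 5 with a mean of at least 5 RPKM and 37 (27 and 10) with limma-voom, and in shPebp1 from 12 to 0 without the filter and 7 with the length trend removed. Without 1 shLuc library the numbers were 3 to 5 (shEtnk1/2), 0 to 3 (shPcyt2), 15 to 20 (Etn-deprived) and 0 in both cases (shPebp1). The comparison of the 3 pathway libraries gave 1 with a pseudocount of 0.25 RPKM, 5 without the filter and 0 to 8 without 1 library, the 8 without shPcyt2 and 2 without shLuc replicate 1. At an unadjusted p under 0.05 the limma fits that called 0 genes held 2836 (shEtnk1/2), 1786 (shPcyt2), 2968 (Etn-deprived) and 1736 (shPebp1) without the filter. They held 172 in shPcyt2 and 231 in shPebp1 without the library labelled shLuc replicate 2, and 164 in shPebp1 without shLuc replicate 1. The cause was not tested.

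The signs that turned belonged to differences called neither before nor after. Ccl2 in shEtnk1/2 was at 0.014 with median ratio scaling, 0.0088 with quantile normalization and 0.086 with the length trend removed. With that trend removed Ccl2 was also at 0.039 in the pathway comparison and at 0.085 in Etn-deprived against shPebp1. Lif in the pathway comparison was at 0.0214 with median ratio scaling, 0.0213 with quantile normalization and 0.0203 with the length trend removed, and Cxcl5 in Etn-deprived against shEtnk1/2 was at -0.016 with quantile normalization. Leaving out 1 library gave ranges of -0.076 to 0.14 for Ly96 in shEtnk1/2, -0.21 to 0.10 for Tlr4 and -0.19 to 0.089 for Cxcl5 in shPcyt2, -0.012 to 0.15 for Cxcl12 and -0.0097 to 0.31 for Tlr4 in Etn-deprived, and -0.15 to 0.0055 for Ccl7 in shPebp1. In the pathway comparison they were -0.13 to 0.026 for Ccl2, -0.089 to 0.11 for Lif and -0.0084 to 0.31 for Tlr4. The cause was not tested.

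No paired analysis was possible because the treated groups have 1 library each and share fewer than 2 replicate numbers with shLuc.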
